A study of Homo sapiens with 28 samples.

Results

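The muscle actins and the proteins that make actin filaments contract were read in human pluripotent cell lines: ACTC1, ACTA1, ACTA2 and ACTG2, the actins of heart, skeletal and smooth muscle, and TAGLN, CNN1, MYL9, TPM1 and TPM2, which bind or move actin filaments. The members are the 9 genes with these symbols, taken through the array's annotation out of 16941 genes that have probesets of their own, and 113 probesets (the array's short exon-level features) belong to them. They were chosen with results of these arrays known, among them a lower ACTC1 in tumour-derived than in embryonic lines. Every difference of a member between those 2 kinds of line is therefore given as a description, with no p-value. Counts of members past limma's threshold (called: adjusted p below 0.05) stand beside the share of all features called, for reference only. Gene level means the log2 value of a transcript cluster, which sums up the probesets of a gene. For 7 members the cluster carries that symbol alone. The clusters of TAGLN and ACTA2 are also annotated to PCSK7 and FAS-AS1, so TAGLN was read as the median of its 11 own probesets on each array, and ACTA2 as the median of its 10. The standard errors (SE) of these 2 come from the spread of their own medians alone. Those of clusters use limma's spread, which borrows from all clusters, so the 2 kinds of SE are not comparable.

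The data are 14 Affymetrix Human Exon 1.0 ST arrays of total RNA, 1 per cell line and growth condition, made after sorting of the cells for the surface antigen SSEA3. The first group is 6 embryonic stem (ES) lines (H9, H14, Shef3, Shef5, Shef6 and Shef7), grown on mouse embryo fibroblasts inactivated with mitomycin C (feeders), in knock-out DMEM with Serum Replacement at 10% and FGF at 4 ng/ml. The second is 5 embryonal carcinoma (EC) lines (2102Ep, 833KE, NCCIT, NTERA2 and TERA1), kept in flasks of plastic with FCS at 10% in high-glucose DMEM. The third is 3 of these EC lines, NTERA2, 2102Ep and 833KE, grown on the feeders in the ES medium. ES lines come from embryos and EC lines from germ cell tumours, and both are established lines. EC lines on plastic differ from ES lines in cell type, medium and support together. Each array of a group is another line, so the spread and every p-value are those between lines, and no culture was repeated.

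Actin is the protein of the thin filament, and its muscle forms differ from the cytoplasmic forms ACTB and ACTG1 in few residues. Tropomyosins lie along the filament and control access to myosin, the light chain MYL9 switches non-sarcomeric myosin on when phosphorylated, and transgelin (TAGLN) and calponin (CNN1) bind filaments in smooth muscle. Most of these genes are known targets of serum response factor (SRF), which binds a short sequence called the CArG box. Its partners include myocardin (MYOCD), and its partners MRTFA and MRTFB switch it on when free actin monomer runs low. Several of the members are also made by fibroblasts and by cells that begin to form mesoderm.

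Promoters in RefSeq (GRCh38.p14; 250 bases before to 50 after the start of a gene) were available for 7 of the 9 members, with 11 promoters in all. A CArG box, searched on both strands (the pattern reads the same on each), was in 3 of those 11, against 1.29% of all 35116 promoters of the same length of 300 bases. These were 1 of the 3 promoters of ACTC1 and the only 1 each of ACTA1 and ACTG2. The promoters of ACTA2, CNN1, TPM1 and TPM2 held no match. The 130 bases before the start are printed for the 3 actins with a match, and capitals mark the box. A match is only a match of letters. The ACTC1 stretch is chr15:34795550-34795679 on the minus strand, with the first base of the box 109 bases before the start. That of ACTA1 is chr1:229434095-229434224 on the minus strand, with the box at 97. That of ACTG2 is chr2:73892878-73893007 on the plus strand and holds 2 boxes, at 110 and 73.
ACTC1: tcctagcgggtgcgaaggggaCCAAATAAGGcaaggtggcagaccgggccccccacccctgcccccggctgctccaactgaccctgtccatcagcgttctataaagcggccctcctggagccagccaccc
ACTA1: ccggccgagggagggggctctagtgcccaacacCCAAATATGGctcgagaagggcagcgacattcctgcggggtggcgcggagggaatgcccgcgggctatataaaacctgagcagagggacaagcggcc
ACTG2: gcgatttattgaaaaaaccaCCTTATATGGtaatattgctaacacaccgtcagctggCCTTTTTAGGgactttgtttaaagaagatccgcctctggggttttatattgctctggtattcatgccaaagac

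Some facts of the arrays touch the values below. The labels number the arrays without saying what the numbers mean, and 4 arrays have numbers up to 13 (2 ES lines, Shef5 and H14, and the feeder arrays of 2102Ep and NTERA2) while the other 10 have numbers from 17. All pluripotency markers with a cluster of their own (13) lay above the median of all clusters, 6.30. The brightest probeset of POU5F1 read from 7.25 to 10.1 over the 14 arrays, and its other probesets averaged 6.61, 3.54 and 3.53. Of the 28 other cardiac and skeletal muscle genes measured, 23 lay below that median. Of 23 clusters of fibroblast markers, 13 lay below it, the lowest being FAP at 1.998. The summed level of the fibroblast list (log2 of the sum of the linear values) ran from 11.9 to 12.96 in ES lines, from 11.4 to 12.3 in EC lines on plastic and from 12.2 to 13.2 in EC lines on feeders. It was highest in NTERA2 on feeders (13.2), H14 (12.96) and Shef5 (12.8). Its part in the results below was not tested. The feeders are mouse cells, and the cells were sorted for SSEA3. How many feeder cells passed the sort, and how far mouse RNA reads on these probes, was not tested. In RNA pooled from many sorted cells, fewer cells that make a transcript and less of it per cell cannot be told apart. The muscle actins are near-identical as proteins, and how far a probe of one reads another was not tested.

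ACTC1, the actin of the heart and of early muscle (cluster 3617719), separated ES from EC lines more widely than any other member. In ES lines it ran from 7.13 in Shef6 through a median of 8.35 to 9.92 in Shef5. Of the EC lines on plastic, NCCIT read 3.93, 2102Ep 4.38, 833KE 4.69, TERA1 4.37 and NTERA2 4.96. On feeders NTERA2 read 6.26, 2102Ep 4.47 and 833KE 4.99. Every EC array lay below every ES array in both growth conditions, and NTERA2 was the highest EC line in each. The means were 8.43 ± 1.03 in ES (SD, n = 6), 4.47 ± 0.39 in EC on plastic (SD, n = 5) and 5.24 ± 0.92 in EC on feeders (SD, n = 3). EC lines on plastic were 15.6-fold lower than ES lines (log2 difference -3.96, SE 0.43), and EC lines on feeders 9.13-fold lower (-3.19, SE 0.59). The second difference was -2.81 without 2102Ep on feeders, -3.06 without 833KE on feeders, -4.16 within the arrays numbered up to 13 and -2.89 within those from 17.

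ACTA1, the skeletal muscle actin (cluster 2459837), differed less. ES lines ran from 7.39 in Shef6 through a median of 8.16 to 10.0 in Shef5. The EC values on plastic were lower, with NCCIT at 6.86, 2102Ep at 7.12, 833KE at 7.61, TERA1 at 7.44 and NTERA2 at 7.05, and on feeders NTERA2 read 7.59, 2102Ep 7.50 and 833KE 8.69. The groups overlapped: 2 EC arrays on plastic and all 3 on feeders lay above Shef6. The means were 8.40 ± 0.93 in ES, 7.21 ± 0.30 in EC on plastic and 7.93 ± 0.66 in EC on feeders (SD). The log2 difference from ES was -1.19 on plastic (SE 0.39) and -0.47 on feeders (SE 0.52). Within the arrays numbered from 17, 833KE on feeders was above the ES mean, and the second difference turned to 0.70, while within those up to 13 it was -1.67.

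ACTA2, the smooth muscle alpha actin of vessels and of activated fibroblasts, showed no order of ES and EC lines beyond the spread. ES lines fell into H14, Shef5 and Shef7 at 6.44 to 6.46 and Shef6, Shef3 and H9 at 5.48, 4.74 and 4.69. On plastic NCCIT read 4.76, 2102Ep 4.90, 833KE 5.22, TERA1 6.39 and NTERA2 4.12, and on feeders NTERA2 read 5.40, 2102Ep 5.77 and 833KE 6.27. TERA1 on plastic was as high as the upper 3 ES lines, so the groups overlapped throughout. The means were 5.71 ± 0.86 in ES, 5.08 ± 0.83 in EC on plastic and 5.81 ± 0.44 in EC on feeders (SD). The log2 difference from ES was -0.63 on plastic (SE 0.51) and 0.10 on feeders (SE 0.54). The second was -0.86 within arrays numbered up to 13 and 0.92 within those from 17.

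ACTG2, the gamma actin of gut smooth muscle (cluster 2489007), overlapped between the groups, with NCCIT the highest of the EC arrays. ES lines ran from 6.18 in Shef3 through a median of 7.29 to 8.43 in Shef5. On plastic NCCIT read 7.47, above 5 of the 6 ES lines, 2102Ep 6.48, 833KE 5.24, TERA1 5.82 and NTERA2 4.88. On feeders NTERA2 read 5.16, 2102Ep 5.37 and 833KE 6.24. NCCIT was the lowest of the 5 lines on plastic in ACTC1, ACTA1 and TAGLN and the highest in ACTG2. The means were 7.18 ± 0.79 in ES, 5.98 ± 1.03 in EC on plastic and 5.59 ± 0.57 in EC on feeders (SD), and the log2 differences from ES were -1.20 (SE 0.48) and -1.59 (SE 0.44). The second was -2.64 within arrays numbered up to 13 and -0.58 within those from 17. ACTG2 was the only member with a lower mean in EC lines on feeders than in all 5 on plastic.

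TAGLN, transgelin, an early marker of smooth muscle, had the widest mean difference of the members between EC lines on feeders and on plastic. In NTERA2 and 2102Ep growth condition and array number cannot be told apart. Over its 11 probesets the per-array medians of ES lines ran from 8.29 in Shef7 through a median of 9.19 to 11.1 in H14. Among EC lines on plastic NCCIT read 4.67, 2102Ep 6.12, 833KE 7.02, TERA1 6.58 and NTERA2 5.13, all below every ES line. On feeders NTERA2 read 8.78, 2102Ep 7.999 and 833KE 8.30, all above every EC array on plastic, with 2 of the 3 inside the ES range. The means were 9.54 ± 1.07 in ES, 5.90 ± 0.98 in EC on plastic and 8.36 ± 0.39 in EC on feeders (SD). EC lines on plastic were 12.4-fold lower than ES lines (log2 difference -3.64, SE 0.63), while EC lines on feeders differed from ES lines by -1.18 (SE 0.66). Within arrays numbered up to 13 the latter was -2.445 and within those from 17 -0.59.

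CNN1, calponin, an inhibitor of the myosin ATPase in differentiated smooth muscle (cluster 3821263), was close together in 4 of the 6 ES lines and higher in the other 2. Shef6, Shef3, H9 and Shef7 read from 6.50 to 6.61, H14 7.28 and Shef5 8.01. On plastic NCCIT read 4.83, 2102Ep 6.20, 833KE 5.80, TERA1 5.64 and NTERA2 6.16, and on feeders NTERA2 read 5.65, 2102Ep 6.42 and 833KE 6.03. No EC array reached an ES array, but the gap between 2102Ep on feeders and Shef7 was small. The means were 6.93 ± 0.60 in ES, 5.73 ± 0.56 in EC on plastic and 6.03 ± 0.38 in EC on feeders (SD), with log2 differences from ES of -1.20 (SE 0.32) and -0.90 (SE 0.34). The second was -1.61 within arrays numbered up to 13 and -0.55 within those from 17.

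MYL9, the regulatory light chain of smooth muscle and non-muscle myosin (cluster 3883921), was lower in every EC array than in every ES array. The gap between 833KE on feeders (8.53) and Shef6 (8.56) was small. ES lines ran from 8.56 in Shef6 through a median of 9.87 to 10.2 in Shef5, with Shef6 well below the other 5. In EC lines on plastic NCCIT read 7.77, 2102Ep 8.18, 833KE 8.03, TERA1 8.48 and NTERA2 7.51, and on feeders NTERA2 read 8.22, 2102Ep 8.43 and 833KE 8.53. The means were 9.69 ± 0.61 in ES, 7.99 ± 0.37 in EC on plastic and 8.39 ± 0.16 in EC on feeders (SD). EC lines on plastic were 3.24-fold lower than ES lines (log2 difference -1.69, SE 0.29) and EC lines on feeders 2.45-fold lower (-1.29, SE 0.33). The second was -1.83 within arrays numbered up to 13, -0.92 within those from 17 and -1.52 without Shef6.

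TPM1, alpha-tropomyosin, made in muscle and in many other cells through alternative exons (cluster 3597338), was lower on plastic and in between on feeders. ES lines ran from 8.68 in Shef6 through a median of 9.34 to 9.90 in Shef5. On plastic NCCIT read 8.29, 2102Ep 8.30, 833KE 7.69, TERA1 7.71 and NTERA2 7.59, all below the ES lines. On feeders NTERA2 read 8.17, 2102Ep 8.82 and 833KE 9.08, and the last 2 lay inside the ES range. The means were 9.28 ± 0.47 in ES, 7.92 ± 0.35 in EC on plastic and 8.69 ± 0.47 in EC on feeders (SD). The log2 difference from ES was -1.36 on plastic (SE 0.24) and -0.59 on feeders (SE 0.30), and within arrays numbered from 17 the second was 0.035, within those up to 13 -1.26.

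TPM2, beta-tropomyosin (cluster 3204721), was the member whose order followed the array numbers most closely. The 4 arrays numbered up to 13 were its 4 highest, namely H14 at 8.43, Shef5 at 8.37, NTERA2 on feeders at 8.35 and 2102Ep on feeders at 7.73. The other ES lines ran from 6.89 in Shef6 to 7.20 in Shef7, and 833KE on feeders read 6.90. On plastic NCCIT read 6.07, 2102Ep 6.52, 833KE 6.37, TERA1 6.24 and NTERA2 7.17. The means were 7.52 ± 0.69 in ES, 6.47 ± 0.42 in EC on plastic and 7.66 ± 0.73 in EC on feeders (SD). The log2 difference from ES was -1.05 on plastic (SE 0.32) and 0.14 on feeders (SE 0.42). The second was -0.36 within arrays numbered up to 13 and -0.18 within those from 17.

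**Figure D1:**
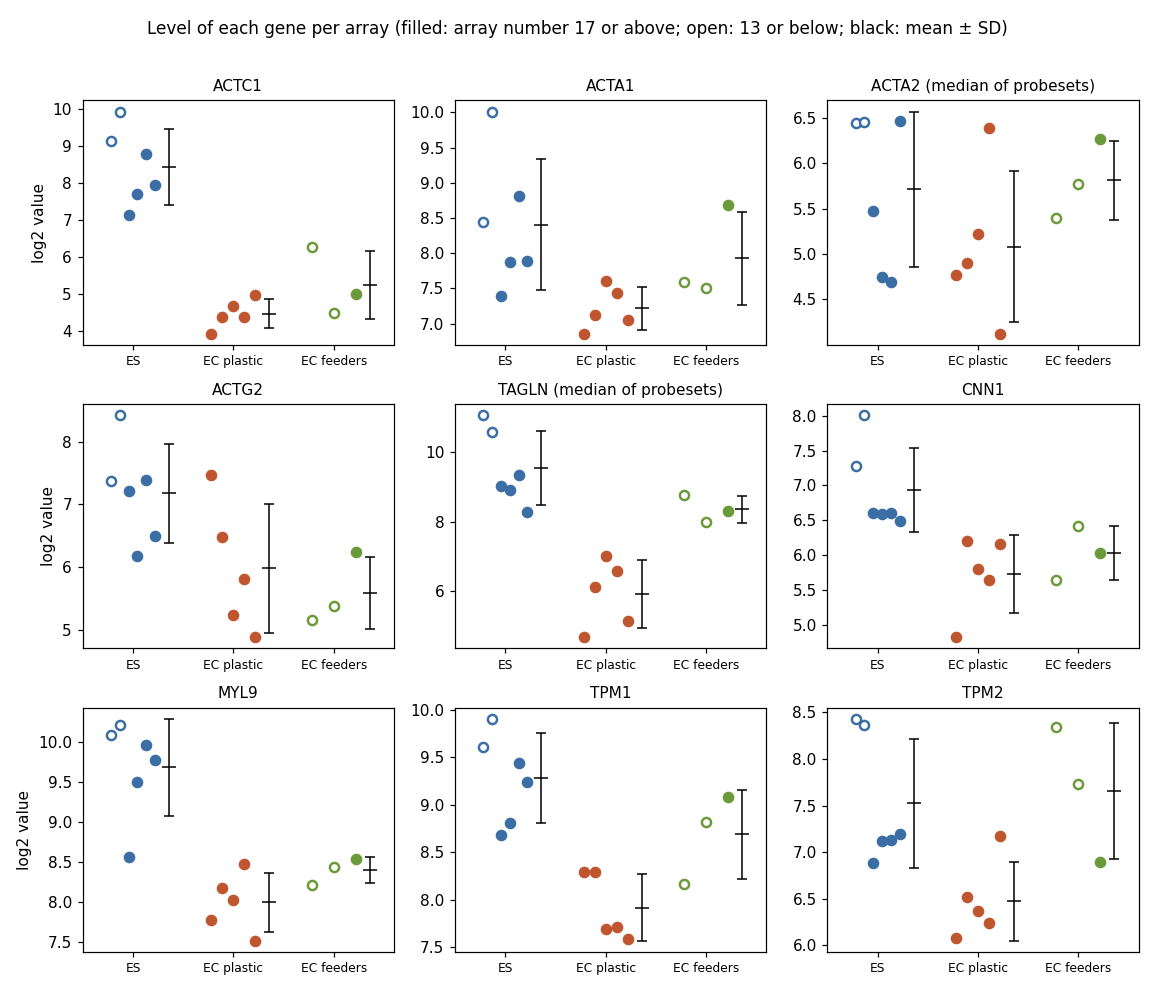
Log2 value of each of the 9 genes (y axis, a scale of its own in each panel) on the 14 arrays, by group (x axis); open points are arrays numbered up to 13, filled points those from 17, and black marks give the mean ± SD of a group. In ACTC1, CNN1 and MYL9 every EC array lies below every ES array, and in TAGLN the 3 arrays on feeders lie above the 5 on plastic.

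Read together, the mean of the ES lines was the highest of the 3 groups in 7 of the 9 members, the exceptions being ACTA2 and TPM2, and the mean of the EC lines on plastic was the lowest in 8, the exception being ACTG2. Against ES lines, 9 of 9 members were lower in EC lines on plastic, with a median log2 difference of -1.20, while the median over all clusters was 0.0046. Of the 7 member clusters, 3 were called lower (ACTC1, MYL9 and TPM1), where 1.34% of all 22011 clusters were (and 3.26% were called higher). In 5 members (ACTC1, TAGLN, CNN1, MYL9 and TPM1) no EC array on plastic reached an ES array, which held for 1.52% of all clusters. On feeders 7 of 9 members were lower than in ES lines, with a median of -0.90 against 0.042 over all clusters. ACTC1 was the 1 of 7 clusters called lower, where 0.731% of all clusters were (and 1.56% were called higher), and 3 members (ACTC1, CNN1 and MYL9) did not overlap with ES lines, where 3.08% of all clusters did not. Because the members were chosen on these contrasts, which also share the 6 ES arrays, nothing is read from the counts.

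**Figure D2:**
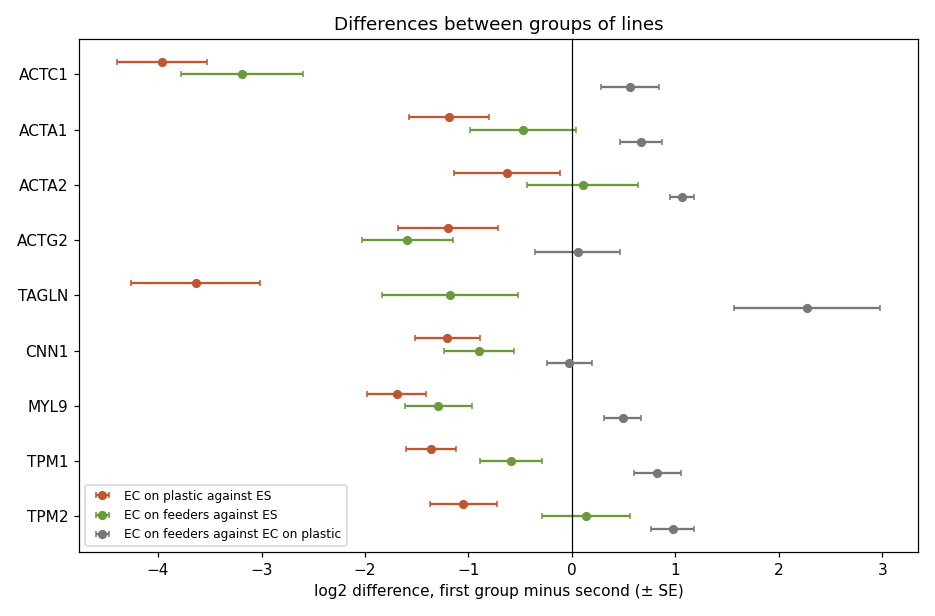
Log2 difference (x axis, first group minus second, point, with ± SE as bars) of each gene (y axis) in the 3 comparisons: EC lines on plastic against ES lines, EC lines on feeders against ES lines, and EC lines on feeders against the same 3 lines on plastic. TAGLN is at -3.64, -1.18 and 2.27, ACTC1 at -3.96, -3.19 and 0.56. The SEs of TAGLN and ACTA2 come from their own medians alone and are not comparable with those of the clusters.

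Growth on feeders in the ES medium was compared with growth on plastic in the same 3 EC lines, a contrast that has its own test. Its 6 arrays also enter the comparisons above, so a direction upward from plastic is not independent of the choice of the members. TAGLN gave the widest difference. It was higher on feeders by 3.65 in NTERA2, 1.88 in 2102Ep and 1.29 in 833KE, a mean log2 difference of 2.27 (SE 0.71) or 4.83-fold, and the groups did not overlap; without NTERA2 the mean was 1.58. ACTA2 was higher by 1.28, 0.88 and 1.04 in the same order of lines, a mean of 1.07 (SE 0.12). The SEs of TAGLN and ACTA2 come from their own medians alone and are not comparable with those of the clusters. TPM2 was higher by 1.17, 1.21 and 0.53 (mean 0.97, SE 0.21, adjusted p = 0.239), and TPM1 by 0.58, 0.52 and 1.38 (mean 0.83, SE 0.23, adjusted p = 0.272). For ACTA1 the differences were 0.55, 0.38 and 1.08 (mean 0.67, SE 0.20, adjusted p = 0.282), and for MYL9 0.70, 0.26 and 0.51 (mean 0.49, SE 0.17, adjusted p = 0.308). ACTC1 differed by 1.29 in NTERA2 but by 0.088 and 0.30 in the other lines (mean 0.56, SE 0.28, adjusted p = 0.413; 0.20 without NTERA2). The lines split in the last 2 members. ACTG2 was higher by 0.28 in NTERA2 and 1.00 in 833KE and lower by 1.11 in 2102Ep (adjusted p = 0.966), and CNN1 was lower by 0.51 in NTERA2 and higher by 0.21 and 0.23 in 2102Ep and 833KE (adjusted p = 0.971).

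None of the 7 member clusters passed limma's test over all clusters. The TAGLN and ACTA2 medians had no test of their own, and none of their probesets passed limma's test over all probesets. In all, 8 of 9 members were higher on feeders by their mean and 7 in all 3 lines, which held for 53.0% and 20.6% of all clusters. In 3 members (TAGLN, ACTA2 and MYL9) every feeder array lay above every plastic array of these lines, as it did in 7.35% of all clusters. The members' median difference was 0.67, that of all clusters 0.022. With limma 0 of 7 member clusters were called, where 0% of all clusters were, and 4 of the 7 had an unadjusted p below 0.05, as did 14.9% of all clusters. Of the 113 probesets 94 were higher on feeders and 0 were called (0% of all probesets), with a smallest adjusted p of 0.354. An unadjusted p below 0.05 was seen in 44 of them, 43 higher and 1 lower, against 12.7% of all probesets. TAGLN held 10 of those 44 among its 11 probesets, TPM1 10 of 23, TPM2 7 of 16 and ACTA2 5 of 10, and ACTG2 held 0 of 12. A two-sided exact permutation test that turns the sign of each line's difference cannot go below p = 0.25 with 3 lines, which is the value of the 7 members higher in all 3. In NTERA2 and 2102Ep the feeder array has a number up to 13 and the plastic array one from 17, so condition and number cannot be told apart there, and only the pair of 833KE lies within 1 range of numbers. In that pair all 9 members were higher on feeders, by 0.23 (CNN1) to 1.38 (TPM1), with TAGLN at 1.29. It is 1 pair of arrays, and the share of all clusters higher in it was not counted, so nothing is read from this. Fibroblast markers moved the same way in part: VIM, the filament protein of fibroblasts, differed by 1.23 (adjusted p = 0.237) and COL6A1, a collagen chain, by 1.06 (adjusted p = 0.237), with a median of 0.36 over the list and 9 of 23 clusters at an unadjusted p below 0.05. The summed level of that list was 13.2 on feeders and 12.1 on plastic in NTERA2, 12.4 and 11.98 in 2102Ep, and 12.2 and 12.3 in 833KE.

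**Figure D3:**
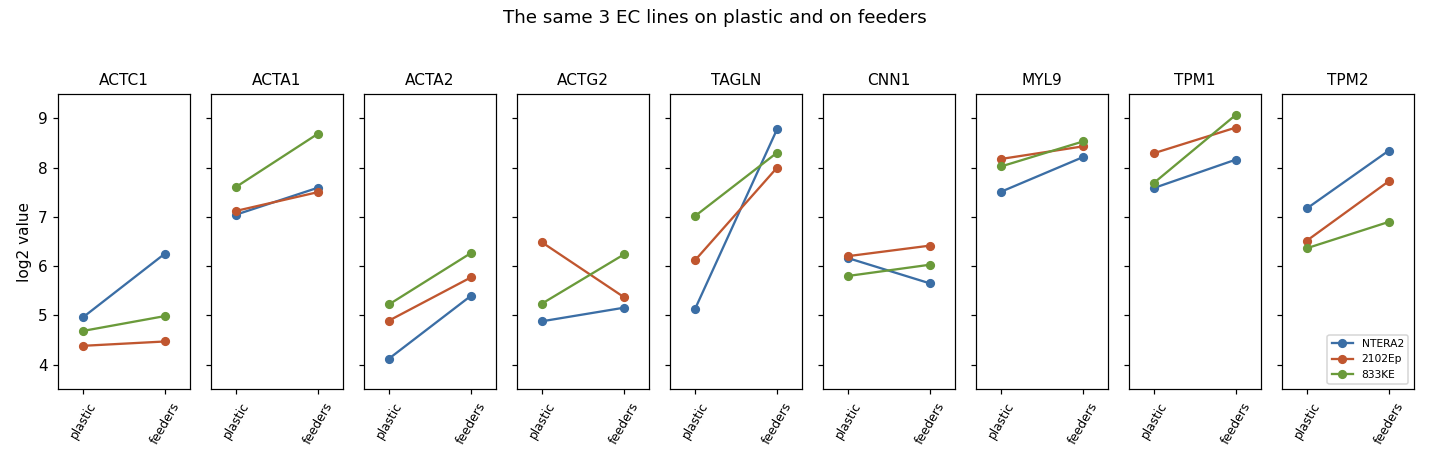
Log2 value (y axis, the same scale in every panel) of each gene in NTERA2, 2102Ep and 833KE on plastic and on feeders (x axis); a line joins the 2 arrays of a cell line. In 7 genes all 3 lines go up from plastic to feeders, most in TAGLN, while ACTG2 goes down in 2102Ep and CNN1 in NTERA2.

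Among the ES lines themselves, the contractile genes were highest in the same few lines. Shef5 was the highest ES line in 6 members, H14 in 2 and Shef7 in 1, and Shef6 was the lowest in 5. H14 and Shef5 carry array numbers up to 13. Their mean was above that of the other 4 ES lines in 9 of 9 members, by 0.71 in TPM1 and MYL9 up to 1.64 in ACTC1 and 1.94 in TAGLN, where over all clusters 55.9% were higher, with a median difference of 0.049. They were the 2 highest ES lines in 6 of the members, which held for 19.49% of all clusters. Line and array number cannot be told apart in these arrays. With the arrays numbered from 17 alone, EC lines on plastic differed from the 4 remaining ES lines by -3.41 in ACTC1, -2.99 in TAGLN, -1.46 in MYL9, -1.12 in TPM1, -0.85 in CNN1, -0.84 in ACTG2, -0.78 in ACTA1, -0.61 in TPM2 and -0.27 in ACTA2. On plastic, NCCIT was the lowest EC line in 5 members and NTERA2 in the other 4.

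At the level of probesets, 111 of the 113 were lower in EC lines on plastic than in ES lines, and 36 were called lower and 0 higher, against 0.745% of all 287329 probesets called lower and 2.07% called higher. On feeders 96 of 113 were lower than in ES lines, with 13 called lower and 0 higher, against 0.344% and 0.61% of all probesets. As with the clusters, nothing is read from these counts. Of the 36, TPM1 held 13, TAGLN 9, ACTC1 8, MYL9 3, ACTA1 2 and CNN1 1. The probesets of a gene differed widely among themselves, and positions of probesets within the genes were not used here.

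In ACTC1 8 of 9 probesets were called lower in EC lines on plastic, by -3.03 (3617735) to -5.43 (3617724 and 3617732), and in each of the 8 no EC array on plastic reached an ES array, as in 0.985% of all probesets. The remaining one, 3617738, was the brightest of the gene and stayed between 8.13 and 9.31 on all 14 arrays, with means of 8.98 ± 0.27 in ES, 8.59 ± 0.13 in EC on plastic and 8.34 in EC on feeders. Its differences from ES were -0.39 and -0.64, while the medians over the gene were -4.12 and -3.22. The dimmest probeset, 3617733, differed by -4.04 and -4.38. In TAGLN 9 of 11 probesets were called on plastic. Its brightest, 3350840, went from 11.1 ± 0.54 in ES to 7.17 ± 0.95 in EC on plastic and 9.41 on feeders, and 3350841 had the largest difference of the gene at -5.30. The smallest differences were those of 3350844, at -0.43, and the dimmest, 3350832, at -1.04, the 2 that were not called. The probesets 3350833 (-1.45) and 3350845 (-2.36) also stood at least 1 away from the gene's median of -3.69.

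**Figure D4:**
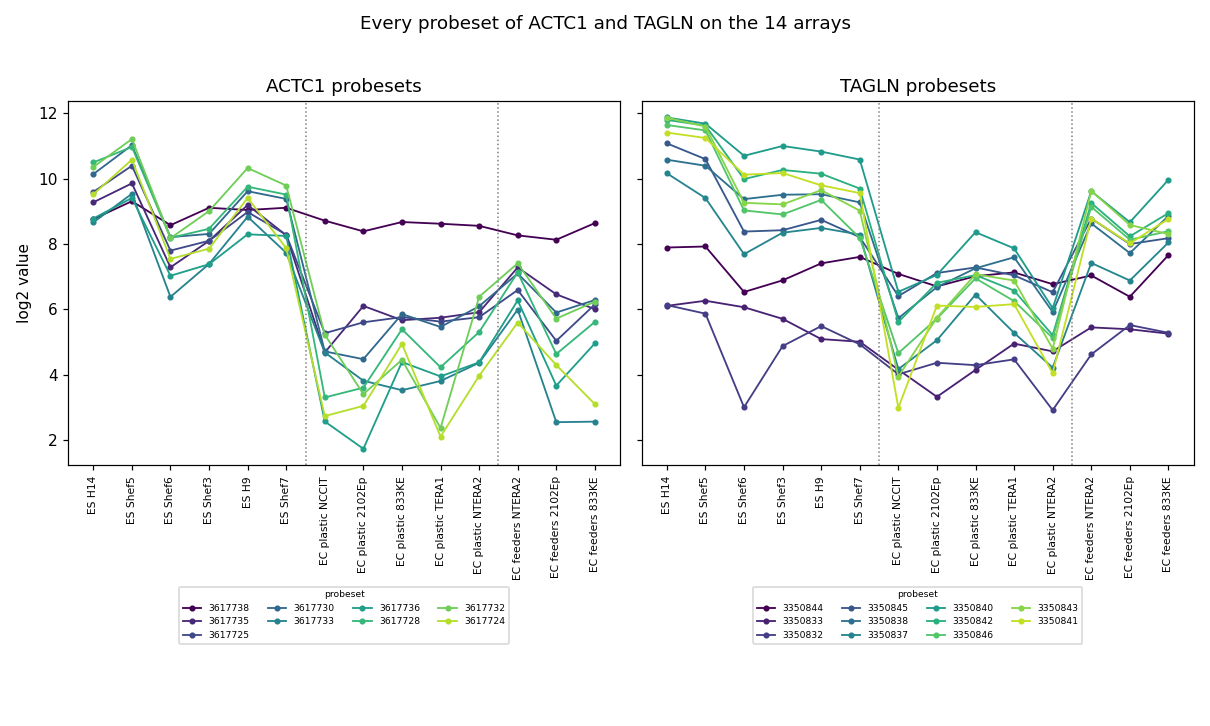
Log2 value (y axis) of each probeset of ACTC1 (left) and TAGLN (right) on the 14 arrays (x axis; dotted lines part ES, EC on plastic and EC on feeders), coloured from the steadiest probeset (dark) to the most variable (light). In ACTC1 8 probesets drop together from ES to EC arrays while 3617738 stays between 8.13 and 9.31, and in TAGLN most return part of the way on feeders.

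The other actins also had bright probesets with small differences. In ACTG2 the brightest, 2489022, and next 2489026 differed from ES on plastic by -0.28 and -0.26 and on feeders by 0.09 and -0.13, and 2489013 by -0.15 and -0.35, against medians of -1.21 and -1.52 over the gene. The dimmest, 2489030, differed by -1.66 and -2.10. On feeders 2 ACTG2 probesets were called lower, 2489017 (-1.86) and 2489025 (-2.48). In ACTA1 the brightest, 2459845, differed by -0.31 and 0.18 and the dimmest, 2459847, by -0.42 and -0.33, while 2459838 (-2.99), 2459848 (-2.33) and 2459841 (-2.28) stood farthest below on plastic. The second of these was called, as was 2459844 (-1.74). In ACTA2 all 10 were lower on plastic, by -0.30 in the dimmest (3299507) to -0.88, with -0.77 in the brightest (3299532), and none was called. On feeders 3299507 stood apart, at -1.07 against a median of -0.04.

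Of the actin-binding genes, CNN1 had 12 of 13 probesets lower on plastic. The exception, 3821265, differed by 0.02, the brightest, 3821276, by -0.67, the dimmest, 3821281, by -1.34, and 3821273 was called (-1.86). On feeders 3821272 stood apart at -1.84. In MYL9 the 3 called on plastic were 3883930 (-2.92), the brightest 3883929 (-2.48) and 3883926 (-1.89), and the first 2 were called on feeders too (-2.05 and -1.71). The other MYL9 probesets lay between -0.43 and -1.16, with the dimmest, 3883925, at -0.51. In TPM1, whose exons are spliced differently between tissues, 13 of 23 were called on plastic, among them the brightest, 3597393 (-1.08). Near level were 3597348 (0.01), 3597364 (-0.09) and 3597363 (-0.21), and farthest below were 3597388 (-3.30) and 3597403 (-2.32). On feeders 4 TPM1 probesets stood at least 1 below the gene's median of -0.50, namely 3597402 (-2.33), 3597404 (-2.20), 3597388 (-1.98) and 3597403 (-1.96), and the first and last were called. The probeset 3597402 was also lower on feeders than on plastic in the 3 paired lines, by a mean difference of -1.22, where the gene's median was 0.85. Its dimmest probeset, 3597399, read 2.10 over the 14 arrays. In TPM2 all 16 were lower on plastic, from -0.38 to -2.09 in the dimmest (3204732), with -0.98 in the brightest (3204740). On feeders they lay on both sides of 0, 8 lower and 8 higher, and none was called in either comparison.

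**Figure D5:**
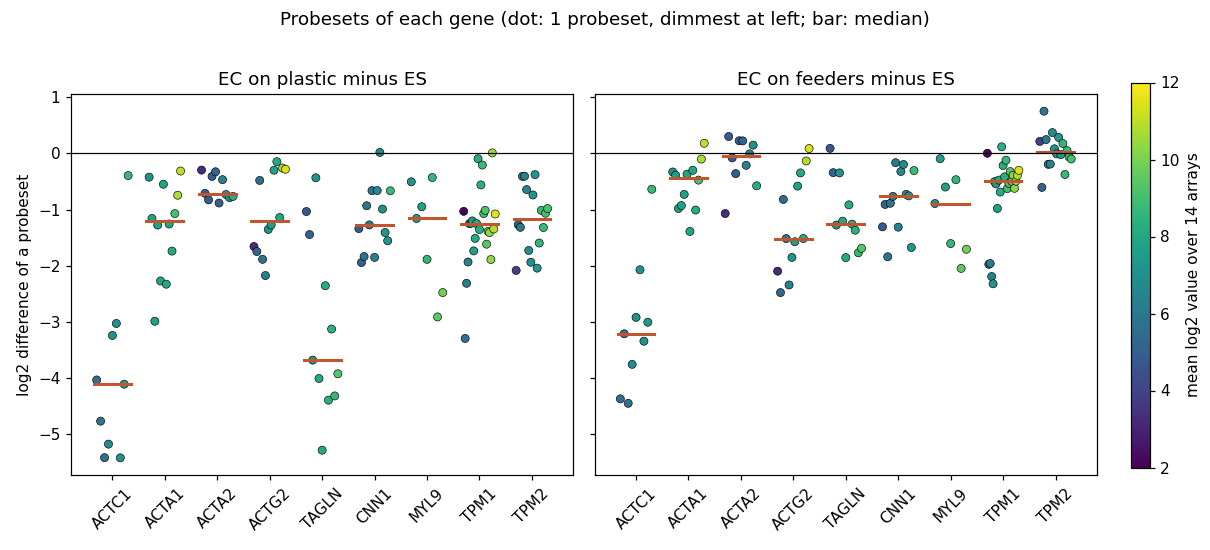
Log2 difference of each probeset (y axis) for EC lines on plastic minus ES lines (left) and EC lines on feeders minus ES lines (right), by gene (x axis; within a gene the dimmest probeset is at the left, colour gives the mean log2 value over 14 arrays, and the bar is the gene's median). ACTC1 lies lowest in both panels with 1 bright probeset near 0, and TAGLN lies lower on plastic (median -3.69) than on feeders (median -1.26).

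Among the called genes on further lists (muscle, the actin cytoskeleton, and regulators and targets of SRF), ANKRD1, THBS1, CCN2 and TNNC1 fell most in EC lines on plastic. These lists leave the 9 members out, and adjusted p-values are limma's over all clusters. Like the members, the lists were chosen with earlier results of these data known. Their p-values and counts against ES lines are therefore descriptions only. Together they are called the other contractile genes here, but the SRF list also holds genes outside the contractile apparatus, such as THBS1, CCN2, CCN1, TGFB2 and ELK4. Of the 105 genes measured, with 107 clusters, 1 was called higher (0.935% of the clusters) and 9 lower (8.41%) in EC lines on plastic than in ES lines. Of all clusters 3.26% were called higher and 1.34% lower. The median was -0.16. Of the 28 genes of heart and skeletal muscle 3 fell and 0 rose (median -0.05). ANKRD1, a stress-responsive titin-binding protein, fell by 2.04 (adjusted p = 0.00117), TNNC1, the calcium-binding troponin of heart and slow muscle, by 1.04 (adjusted p = 0.0136), and MYL7, the atrial light chain, by 0.77 (adjusted p = 0.0205). Within arrays numbered from 17 TNNC1 and MYL7 differed by -0.89 and -0.62 and were not called (adjusted p = 0.0610 and 0.0846), nor was TNNC1 with only the 3 lines also grown on feeders (-0.85, adjusted p = 0.0607) or MYL7 with the array number as a block (adjusted p = 0.0529). Of 25 smooth muscle genes 1 fell, PDLIM3, a protein of the filament anchor, by 0.69 (adjusted p = 0.0403; the difference within arrays numbered from 17 was -0.62, adjusted p = 0.129), and 0 rose (median -0.19). MYH11, the myosin of smooth muscle, differed by -0.09 (adjusted p = 0.727) and CALD1, caldesmon, by -0.90 (adjusted p = 0.0829). Of 32 genes of the cytoplasmic actin cytoskeleton 1 fell, VCL, which links actin to adhesions, by 0.89 (adjusted p = 0.00930), and 0 rose (median -0.17). The cytoplasmic actins ACTB and ACTG1 differed by -0.13 and -0.17 (adjusted p = 0.941 and 0.519).

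Regulators and targets of SRF had the most calls of the 4 lists on plastic, with 6 of 24 lower and 1 higher (median -0.20). Beside ANKRD1 and VCL, THBS1, thrombospondin, fell by 1.40 (adjusted p = 0.0160), CCN2, a matrix protein induced by tension, by 1.36 (adjusted p = 0.0101), CCN1, its relative, by 0.88 (adjusted p = 0.0325) and TGFB2, a growth factor, by 0.70 (adjusted p = 0.0274). ELK4, a partner of SRF, rose by 0.78 (adjusted p = 0.0341). Within arrays numbered from 17 the calls of THBS1, CCN2, CCN1 and ELK4 were lost (adjusted p from 0.0525 to 0.129) at differences of -1.25, -1.31, -0.77 and 0.63, while ANKRD1, VCL and TGFB2 kept theirs. With the array number as a block PDLIM3, THBS1, CCN1 and ELK4 were not called, after quantile normalisation ELK4 was not, and with only the 3 lines also grown on feeders PDLIM3 and TGFB2 were not. Leaving out single lines ended the call of MYL7 (2102Ep), of TGFB2 (Shef6, Shef7, 2102Ep or TERA1), of CCN1 in 7 of 11 cases (all but Shef6, H9, Shef7 and NCCIT), of PDLIM3 in 8 (all but Shef3, NCCIT and NTERA2) and of ELK4 in 9 (all but H9 and TERA1). SRF itself differed by -0.35 (adjusted p = 0.240), MRTFA by -0.27 (adjusted p = 0.308) and MYOCD by 0.45 (adjusted p = 0.419). None of the 3 was called.

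On feeders 5 of the 105 were called against ES lines, 2 higher (1.87% of the 107 clusters, against 1.56% of all clusters) and 3 lower (2.80% against 0.731%), with a median of 0.03. The 2 that rose are on the smooth muscle list: CSRP1, a LIM protein of the filament anchor, by 1.78 (adjusted p = 0.0243) and TAGLN2, a relative of TAGLN made in many cell types, by 1.05 (adjusted p = 0.0206). RYR2, the calcium channel of heart muscle, fell by 1.08 (adjusted p = 0.0476), VCL by 0.92 (adjusted p = 0.0327) and THBS1 by 1.43 (adjusted p = 0.0119). Within arrays numbered up to 13, 2 ES and 2 EC arrays remain and 0 of all 22011 clusters were called with limma (2366 at an unadjusted p below 0.05); there CSRP1 differed by 1.01, TAGLN2 by 1.03, RYR2 by -0.998, VCL by -1.26 and THBS1 by -1.81. Within those from 17, 833KE is the only EC array on feeders, and RYR2 differed by -1.03, VCL by -0.45, TAGLN2 by 0.89 and THBS1 by -1.09. With the array number as a block RYR2 and VCL were not called, and with the spread of all 14 arrays RYR2, CSRP1 and TAGLN2 were not. Leaving out single lines ended the call of RYR2 in 6 of 9 cases (each EC line, H14, Shef6 or Shef3), of VCL in 7 (all but Shef5 and 833KE), of CSRP1 in 4 (2102Ep, 833KE, Shef3 or Shef7) and of TAGLN2 in 1 (Shef3). Between feeders and plastic 0 of the 105 were called with limma, 12 of their clusters (11.2%, against 14.9% of all clusters) had an unadjusted p below 0.05, and the median was 0.13.

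Of 18 transcription factors of heart and muscle, GATA6 fell in EC lines on plastic by 0.77 (adjusted p = 0.00599) and NKX2-5, an early factor of the heart, rose in EC lines on feeders by 0.93 (adjusted p = 0.0285; not called within arrays numbered from 17, where it differed by 0.76, with the spread of all 14 arrays, or without NTERA2, 2102Ep, Shef3 or Shef7). No other was called in either comparison, and the medians were -0.08 and -0.05. Of the 22 fibroblast genes 3 collagens fell in EC lines on plastic, COL1A1 by 1.65 (adjusted p = 0.0188), COL5A2 by 1.40 (adjusted p = 0.00580) and COL6A1 by 1.32 (adjusted p = 0.00671), with a list median of -0.50, and 0 were called on feeders (median -0.12; 6 of 23 clusters at an unadjusted p below 0.05, as were 17.6% of all clusters). The COL1A1 call was lost with only the 3 lines also grown on feeders (difference -1.55, adjusted p = 0.0739). Of 13 pluripotency genes, GDF3, a TGF-beta family ligand, rose in EC lines by 3.49 on plastic (adjusted p = 0.00870) and 3.504 on feeders (adjusted p = 0.0188), DPPA2 rose on feeders by 2.52 (adjusted p = 0.0266), and none fell. On feeders the call of GDF3 was lost without 2102Ep or 833KE, and that of DPPA2 without either of these, Shef6, Shef3 or Shef7, with the array number as a block, and with the spread of all 14 arrays.

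The genes most like ACTC1 and TAGLN across the arrays were ranked by Pearson's r over the 14 arrays among 14425 genes, which share the split between ES and EC lines. For ACTC1 these were CA11 (r = 0.947), RRAS (0.921), CAMKK2 (0.915), CD48 (0.911), COLEC12 (0.905) and ARHGEF19 (0.902). Within the 6 ES lines alone r was 0.54 for CA11 and 0.19 for CAMKK2, but 0.91 for CD48. For TAGLN they were SOX17, a factor of endoderm (0.909), DDR1, a collagen receptor (0.905), SERPINE2 (0.902), COL6A1 (0.893), COLEC12 (0.892) and CER1, a secreted antagonist made in early endoderm (0.890). Within the ES lines alone r was 0.93 for COL6A1, 0.91 for DDR1 and 0.50 for CER1. CER1 read 10.1 in ES lines, 4.82 in EC lines on plastic and 7.44 in EC lines on feeders, and SERPINE2 9.55, 7.85 and 9.29. In both, as in TAGLN, the EC mean was higher on feeders (3 lines) than on plastic (5 lines). Because these genes were picked for their likeness to TAGLN on the same arrays, nothing is read from this.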

How the data were processed

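RNA of 14 arrays was summarised at gene and at exon level. The deposited values are log2 values, 1 per transcript cluster (22011) or probeset (287329), in which log2 was read from their range; per the submitters' processing notes RMA, Affymetrix Expression Console and limma were used, with versions, settings and genome build not given in the sources used here. Array medians lay between 6.19 and 6.39 at gene level. Signal over background is unknown, so the number of arrays limits the precision.

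Symbols came from the platform annotation, in which 14432 clusters had 1 symbol, 2408 several and 5171 none. The groups were compared with limma 3.58.1 under R 4.3.3 (two-sided, through lmFit and eBayes) on the deposited values of the groups compared, over every row, with Benjamini-Hochberg adjustment and a threshold of 0.05. Feeders against plastic had the cell line as a block; the pairing comes from the line names in the labels. Figures were drawn with matplotlib 3.10.9. The fits were tested on simulated data.

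The members and lists were chosen with earlier results of these data known. Named by rule were all members, up to 4 called genes per list and comparison (otherwise the 2 with the smallest p), the 6 genes most like ACTC1 and TAGLN, each member's brightest and dimmest probeset and those at least 1 from the gene's median. Other genes named, such as ACTB, ACTG1, SRF, MRTFA, MYOCD, MYH11, CALD1, CCN1, TGFB2 and ELK4, were added for their role after their values were seen. Alternatives were quantile normalisation, leaving out clusters in the lowest 25% by mean, the spread of all 14 arrays, limma's trend and robust options, the array number as a block, arrays numbered from 17 alone, the 3 lines also on feeders alone, no line block, and each line left out. The fits of EC lines on feeders within each range of numbers were added after seeing the data.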

Additional observations from a re-analysis of the deposited data

How the results depend on the processing

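The differences of the 9 members from ES lines kept their direction in 171 of 171 alternative values for EC lines on plastic and in 141 of 153 for EC lines on feeders, and those between feeders and plastic in 75 of 81. Not all of these alternatives could change a difference. For a cluster, limma's trend and robust options and leaving out dim clusters change only the test. Against ES lines so does the spread of all 14 arrays. On plastic against ES, the array number as a block and arrays numbered from 17 alone give the same difference. Because the members were chosen on the contrasts with ES lines, nothing is read from these counts. On feeders against ES, TPM2 turned to -0.28 with the array number as a block, -0.36 and -0.18 within arrays numbered up to 13 and from 17, and -0.21 without NTERA2 on feeders (its values without 1 line each ran from -0.21 to 0.52). ACTA2 turned to -0.86 within arrays numbered up to 13, and to values from -0.13 to -0.04 with the array number as a block, with the median of its probeset differences, and without Shef3, H9 or 833KE. Within arrays numbered from 17 ACTA1 turned to 0.70 and TPM1 from -0.59 to 0.035. Between feeders and plastic, with the spread of all 14 arrays ACTG2 turned to -0.22 and CNN1 to 0.18, without NTERA2 to -0.057 and 0.22, CNN1 turned to 0.07 with the median of its probeset differences, and ACTG2 to -0.42 without 833KE. On plastic against ES, 3 member clusters (3 to 4 without 1 line each) and 36 member probesets (26 to 38) were called, with 20 probesets within arrays numbered from 17. Of the other contractile genes 10 were called (5, without 2102Ep, to 13), with 6 under the array number as a block and 3 within arrays numbered from 17. On feeders against ES, the 1 member cluster called became 2 with quantile normalisation, 2 with dim clusters left out, and 0 to 2 without 1 line each. Within arrays numbered up to 13 it became 0, where 0 of all 22011 clusters were called. The 13 member probesets became 8 with the spread of all 14 arrays, 0 within arrays numbered up to 13, and 3 (without 2102Ep on feeders) to 11 without 1 line each. The 5 other contractile genes became 3 with the spread of all 14 arrays, 3 with the array number as a block, and 0 within arrays numbered up to 13. Without 1 line each they became 1 (without Shef3) to 6. Between feeders and plastic 0 member clusters and 0 member probesets were called with the line as a block, without the block and without each line. The causes were not tested. Signal over background is unknown, so no bound could be set for dim values.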
